A study of Arabidopsis thaliana with 6 samples.

Results

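Where 2 neighbouring genes run toward each other, their RNAs end face to face, and the poly(A) sites of both strands can lie within a few bases. The facing sites described here are pairs of poly(A) site clusters, 1 on the plus and 1 on the minus strand, whose positions lie within 100 nt of each other on chromosomes 1 to 5. A poly(A) site cluster is a group of neighbouring cleavage positions counted together. Each cluster had to hold 300 or more reads over the 6 libraries, and of several possible partners the one with most reads was kept, so that each cluster of a pair was the other's best partner. The members were thus chosen by position and by their read total over all libraries, and the difference between the groups did not enter the rule. It gave 632 facing pairs, that is 1264 clusters, of 217870 clusters in all, of which 215511 lay on these chromosomes and 22516 of those held at least 300 reads. RNA came from whole Arabidopsis thaliana seedlings of the Col-0 ecotype, with no transgene or mutation named in the labels, grown under constant light for 1 to 2 weeks and then kept 48 h without light. In the Light group (3 libraries) the seedlings then received light for 6 h, and in the Dark group (3 libraries) they remained in darkness over the same 6 h. RNA 3' ends were sequenced by 3'READS+, a method that captures polyadenylated RNA and reads its last bases, so that each read marks a strand and an end. Whether the 3 libraries of a group stem from independent plates or plantings is not in the labels; every p-value here is therefore set against library-to-library spread alone, and that spread may be technical.

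At the end of a gene the nascent RNA is cut downstream of a poly(A) signal and a poly(A) tail is added, while the polymerase goes on for some distance before it leaves the template. Convergent genes therefore share a terminator region, and RNAs that end beyond the facing site carry a stretch complementary to the facing RNA. In plants such tail-to-tail overlaps are known as cis-natural antisense pairs, and for some of them small RNAs made from the overlap have been described. A gene can use several poly(A) sites; the distal one lies farther along the direction of transcription and gives the longer RNA, and the proximal one gives the shorter.

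Library totals were 13.20 to 13.51 M reads in Light and 13.36 to 14.53 M in Dark. Over the sites tested, log-scaled values correlated at 0.983 to 0.986 between Light libraries, at 0.977 to 0.986 between Dark libraries and at no more than 0.799 between the groups; sites are not independent replicates. The defining markers of leaf, root, epidermis and phloem had reads, except that the strand of the root hair gene COBL9 was not resolved. The seed storage genes CRA1, CRU3 and OLEO1 stood at 6.84, 3.49 and 13.4 CPM in Light replicate 1 and at no more than 0.204 CPM in any other library; CPM, counts per M reads, are scaled here with normalization factors. Calls of named sites that were lost without that library are given with their values. The sites of facing pairs held 6.54% ± 0.041 of all reads in Light libraries and 6.00% ± 0.152 in Dark libraries (± SD over 3 libraries). In RNA from whole seedlings, fewer cells of a type and less RNA per cell cannot be told apart.

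The RNAs of most facing pairs ended short of each other. In 454 pairs (71.8%) the plus site lay before the minus site, leaving a gap with a median of 61 nt, and in 178 pairs (28.2%) the RNAs crossed, by a median of 28.5 nt. As a signed distance, plus position minus minus position, the median was -38 nt and the quartiles were -74 and 4 nt. Distances did not fall evenly around the crossing point. The most frequent value was a crossing by 4 nt, with 14 pairs, and 29 pairs crossed by 3 to 5 nt, against 3 pairs that lay 3 to 5 nt apart, 8 that crossed by 0 to 2 nt and 10 that crossed by 6 to 8 nt. Among the 1370 candidate pairs before a partner was chosen, the counts were 65 crossing by 3 to 5 nt and 15 apart by 3 to 5 nt. With a minimum of 1000 reads per site they were 9 against 2 of 190 pairs, and with 100 reads 39 against 9 of 1222. Of the 29 pairs, 25 joined 2 protein-coding genes, and their stronger strand held a median of 2.16 times the reads of the weaker. Which base of a cluster the deposited position stands for is not given in the sources used here, so the crossing may carry an offset of a few bases.

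**Figure D1:**
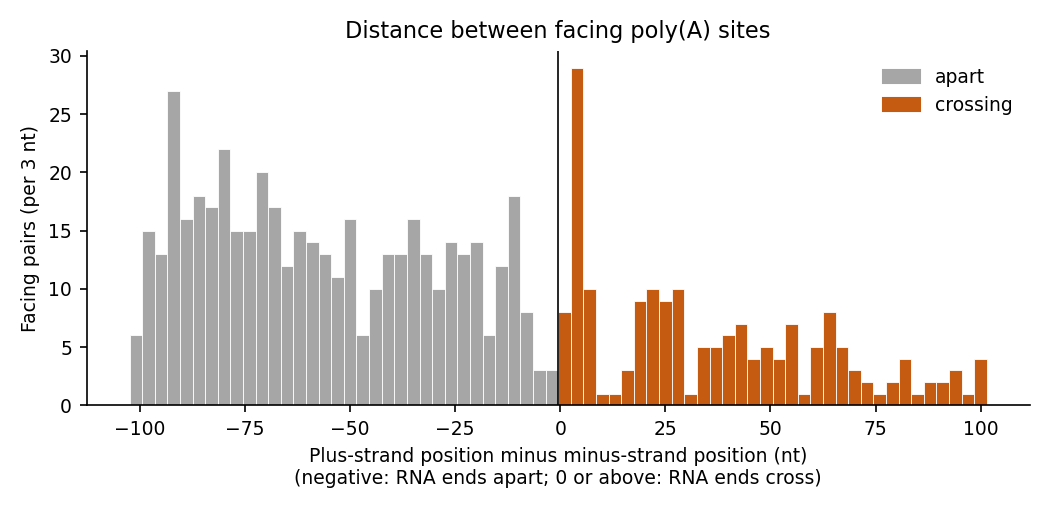
Number of facing pairs (vertical axis, per 3 nt) by signed distance between their sites (horizontal axis, plus-strand minus minus-strand position in nt). Grey bars are the 454 pairs whose RNA ends lay apart and orange bars the 178 pairs whose RNA ends crossed; the highest orange bar holds the 29 pairs that crossed by 3 to 5 nt.

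The limits of the rule cut through a continuous range. Just inside the read limit were a pair on chromosome 2 with 768 reads at 16598154 and 300 reads at 16598205, and another there with 301 and 427 reads. Just outside were pairs with 943 and 297 reads on chromosome 4 and with 299 and 456 reads on chromosome 1. At the distance limit, pairs on chromosome 2 (18452947 and 18452847) and chromosome 1 (17321111 and 17321211) lay exactly 100 nt apart and were kept, while the nearest pairs beyond it, on chromosomes 4 (8521454 and 8521555) and 2 (14581789 and 14581890), were not. Coordinates were taken unchanged from the cluster table, and the submitters' processing notes name TAIR10 as the build. Pairs were found on every chromosome, 164 on chromosome 1, 92 on 2, 133 on 3, 99 on 4 and 144 on 5. They fell at 613 places, 594 with 1 pair and 19 with 2 pairs of the same facing ends, so pairs at those 19 places are not independent.

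By RefSeq gene names, 602 pairs joined 2 protein-coding genes, 29 had a protein-coding gene on 1 strand and 1 had none. No gene was assigned to 24 sites. Gene strands were inferred from reads. This left out 8328 protein-coding genes with few reads and 685 of ambiguous strand, which could not be assigned to any site. A site with no gene assigned may therefore lie at one of these genes. The pairs covered 1202 genes in 583 distinct protein-coding combinations. Of 1240 sites with a gene, 83.5% lay within 100 nt of its end and 38 lay over 400 nt inside it; the gene table gives no exons or untranslated regions. Reads were unequally divided between the strands. A member site held a median of 1182 reads over all libraries, the weaker site of a pair a median of 664 and the stronger a median of 2514. The stronger-to-weaker ratio had a median of 2.85, was under 2 in 221 pairs and at least 10 in 113, and reached 994 in the pair of PYK10 and AT3G09250.

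Light against darkness changed most facing sites, in both directions. By edgeR's quasi-likelihood test with Benjamini-Hochberg adjustment at 0.05, fitted over the whole table, 455 of 1264 member sites (36.0%) had more reads in Light, 506 (40.0%) fewer, and 303 (24.0%) missed the threshold. Over all 47978 sites tested, 68.1% were called, 35.2% higher and 32.9% lower in Light, and over the 22515 sites with at least 300 reads 35.8% were higher and 41.5% lower. The members' shares therefore stayed close to those of other sites of like depth. The median size of a change was 0.93 on the log2 scale for members, 1.04 over all sites and 0.98 over sites with at least 300 reads, and the median change, Light minus Dark, was -0.08, 0.05 and -0.10. All 1264 members passed the filter on low counts. Scaled by library totals alone, the median of all sites moved up by 0.40, giving 612 higher and 367 lower member sites; higher sites made up 62.5% of calls under that scaling, against 47.3% with normalization factors. Log2 changes here are relative to those factors. Their standard error was derived from the test, as the size of the change divided by the square root of its F statistic.

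The directions of the facing strands were spread over all combinations. In 173 pairs (27.4%) the sites changed in opposite directions, in 82 (12.97%) both were higher in Light, in 102 (16.1%) both were lower, in 247 (39.1%) only 1 site was called and in 28 (4.43%) neither was. Of the 173 opposite pairs, 167 had no overlap between the Light and Dark libraries at either site, and in 62 each side changed at least 2-fold. Both sites of these pairs had been called in the same libraries, so the lack of overlap is no separate support. Across the 632 pairs the changes of the plus and the minus site correlated with Pearson's r = 0.027 and Spearman's rho = 0.022, given as a description, since the sites of a pair share libraries and place. Among 430 opposite-strand pairs that lay over 100 and up to 500 nt apart, and whose clusters were in no candidate pair, 31.9% were opposite, 11.2% both higher, 18.4% both lower, 32.8% had 1 site called and 5.81% none. Their r was 0.00023 and rho 0.0039. Scaling by library totals changed the like-direction counts to 152 both higher and 54 both lower and left 172 opposite. Without Light replicate 1, 162 pairs were opposite.

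**Figure D2:**
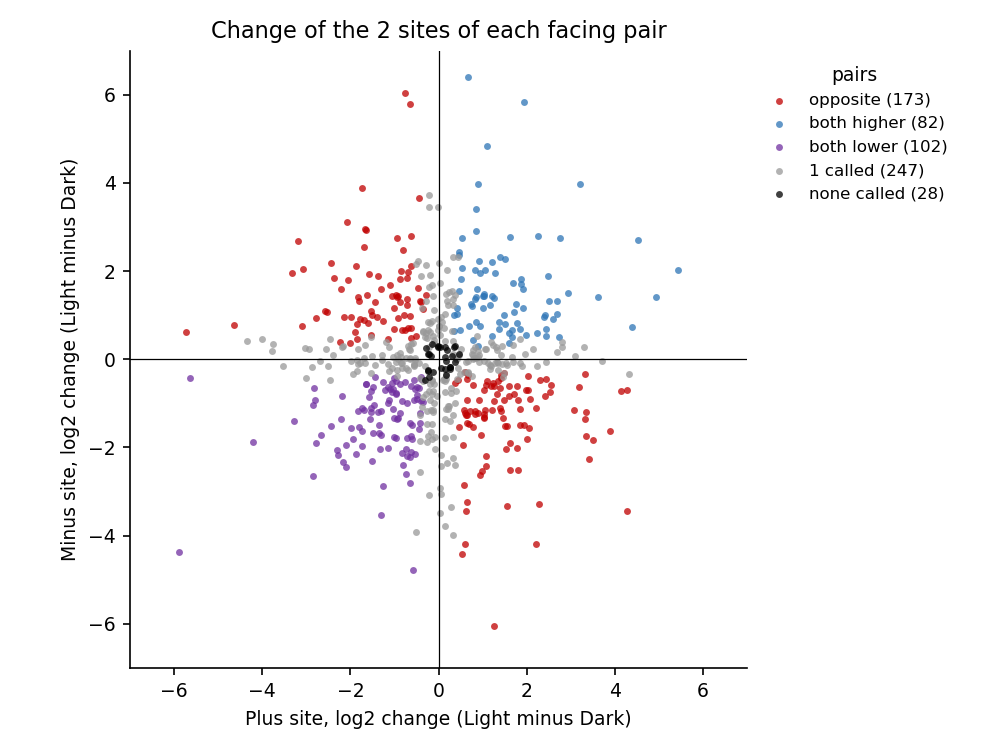
Log2 change (Light minus Dark) of the plus site (horizontal axis) and the minus site (vertical axis) of each of the 632 facing pairs, coloured by which sites passed the test. Opposite pairs (173) fill the upper left and lower right, like-direction pairs (82 higher, 102 lower) the other corners, with a correlation of r = 0.027 over all points.

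Testing the strands against each other within a pair, where library scaling cancels, gave a difference in 511 of 632 pairs (80.9%), by edgeR's test of unequal change within a unit, adjusted over all facing pairs. When the 430 wider pairs were adjusted together with them, 509 facing pairs and 79.1% of the wider pairs were called, so the share in facing pairs was close to that background. The plus site moved more toward Light in 266 of the 511 and the minus site in 245. The difference was at least 1 log2 unit in 377 and at least 2 in 205, with a median size of 1.34 over all facing pairs and 1.29 over the wider ones. Pairs that crossed and pairs that lay apart had similar class shares, 29.8% and 26.4% opposite; their median strand difference was 1.59 and 1.23, the share called 85.4% and 79.1%, and r -0.070 (n = 178) and 0.073 (n = 454). No test was made of these differences.

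The largest strand difference among opposite pairs was that of VDAC1 (AT3G01280), a channel of the mitochondrial outer membrane, and HIR2 (AT3G01290), a protein of the hypersensitive induced reaction family (chromosome 3, plus site at 88021 and minus site at 88053). VDAC1's site had 18.6, 17.8 and 13.9 CPM in Light, against 1.02, 0.998 and 0.555 CPM in Dark. HIR2's site had 149, 184 and 177 CPM in Light, against 1479.7, 2228 and 1813 CPM in Dark. In all 3 Light libraries VDAC1's site stood above, and HIR2's below, every Dark library. Here and below, such lack of overlap was a condition for naming opposite pairs, like-direction pairs and shifts, and is no separate support. VDAC1's site held 788 reads over all libraries. Unless stated, values here and below are those of the named site, not of the whole gene. The 2 sites lay 32 nt apart. Read-weighted mean ends, over each strand's sites within 400 nt, lay 158 nt apart in Light and 269 nt in Dark. The changes were 4.28 ± 0.25 (adjusted p = 4.28e-12) for VDAC1, 19.5-fold higher, and -3.44 ± 0.15 (adjusted p = 5.62e-14) for HIR2, 10.8-fold lower. Plus minus minus, the strand difference was 7.72 (adjusted p = 2.53e-22).

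Next came GAD2 (AT1G65960), a glutamate decarboxylase, and TPX2 (AT1G65970), a thioredoxin-dependent peroxidase, whose RNAs crossed by 27 nt (chromosome 1, plus site at 24557420 and minus site at 24557393). GAD2 had 504, 508 and 471 CPM in Light, against 208, 194 and 223 CPM in Dark. TPX2 had 6.25, 6.04 and 3.72 CPM in Light, against 437, 254 and 377 CPM in Dark. The groups did not overlap at either site, and the plus site held 98.9% of the reads of the 2 sites in Light and 37.6% in Dark. GAD2 rose 2.37-fold, a log2 change of 1.25 ± 0.12 (adjusted p = 6.74e-09), and TPX2 fell 66.6-fold, a change of -6.06 ± 0.22 (adjusted p = 3.34e-15).

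In a pair that crossed by 4 nt, DUT1 (AT3G46940), a dUTPase, which removes dUTP from the nucleotide pool, faced a plus site with no gene assigned (chromosome 3, plus site at 17288259 and minus site at 17288255). DUT1 had 9.34, 8.83 and 5.54 CPM in Light, against 0.17, 0.0831 and 0.0793 CPM in Dark. The facing site had 4.21, 3.26 and 3.20 CPM in Light, against 5.19, 7.57 and 5.39 CPM in Dark. DUT1 lay above the Dark libraries, and the plus site below them, in all 3 Light libraries. DUT1 had a change of 6.05 ± 0.43 (adjusted p = 7.45e-11), while the plus site fell by 0.76 on the log2 scale (adjusted p = 0.00569) and was no longer called under library totals (-0.36, adjusted p = 0.167). A similar pattern stood at AT3G17890, where both sites had the same position (chromosome 3, plus site at 6127874 and minus site at 6127874). The minus site, with no gene assigned, had 33.2, 32.5 and 18.1 CPM in Light, against 0.851, 0.249 and 0.397 CPM in Dark, and AT3G17890 had 4.87, 4.62 and 5.15 CPM in Light, against 8.08, 7.23 and 7.69 CPM in Dark. Here too the minus site was higher in every Light library, with a log2 change of 5.79, and the plus site was lower, with one of -0.65, which library totals reduced to -0.25 (adjusted p = 0.260).

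In the other 4 of the 8 opposite pairs both sites had a gene assigned. ADK2 (AT5G03300), an adenosine kinase, rose 4.65-fold and the site of AT5G03310 fell 18.5-fold. ADK2 had 76.4, 74.1 and 87.3 CPM in Light, against 17.4, 17.96 and 15.8 CPM in Dark. AT5G03310 had 0.395, 0.475 and 0.587 CPM in Light, against 11.9, 6.32 and 8.72 CPM in Dark, all Light values below all Dark values. AT5G52190 stood at 8.68 ± 1.85 CPM in Light and 463 ± 57.4 CPM in Dark (SD, n = 3 each), 53.3-fold lower, and I-2 (AT5G52200), an inhibitor of type 1 protein phosphatase, at 13.2 ± 2.01 CPM in Light and 8.65 ± 1.06 CPM in Dark, 1.53-fold higher; I-2 was not called when all sites of its strand within 400 nt were summed (0.32, adjusted p = 0.0676). The site given to AT5G52190 matched 2 genes, and the gene with the nearer end was taken. AT1G06830 rose 10.7-fold and AT1G06840 fell 4.84-fold. FNR1 is described with the photosynthesis genes. The strand difference of each of the 8 pairs stayed past the threshold with any 1 library left out.

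**Figure D3:**
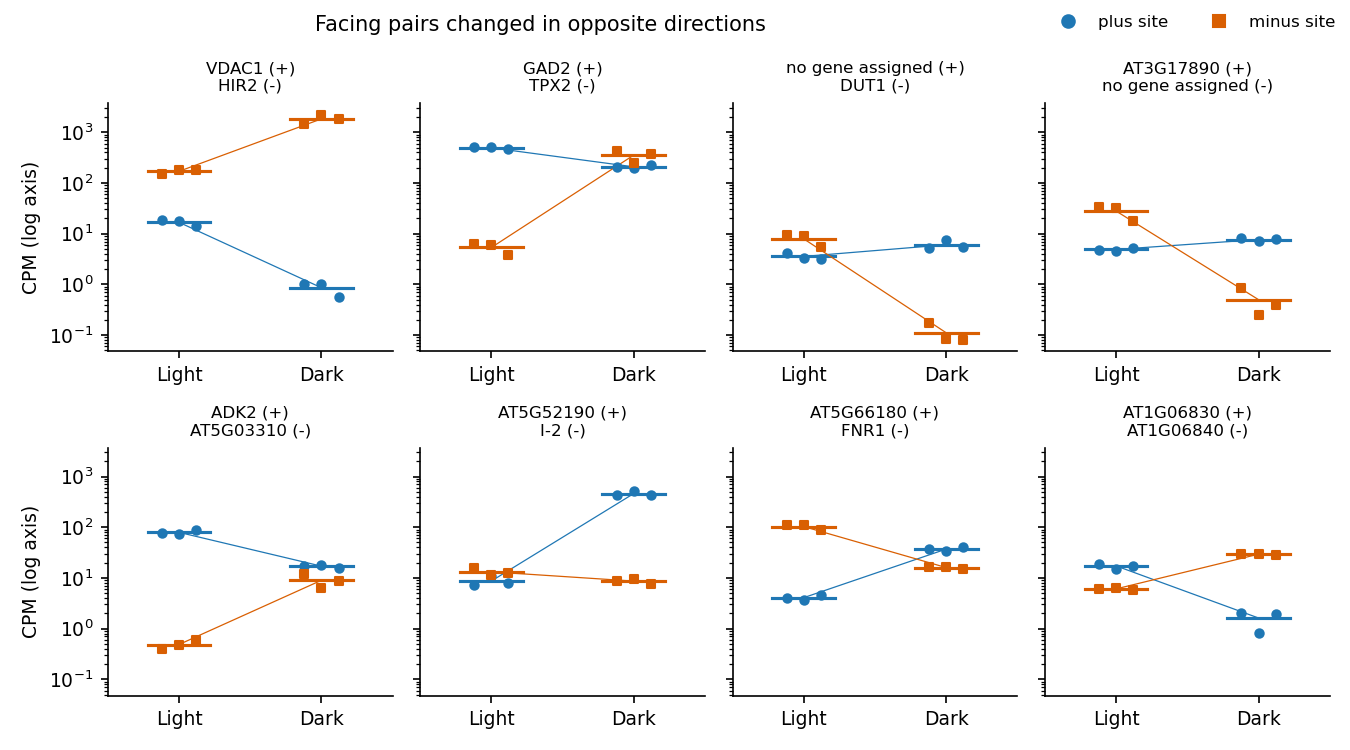
CPM on a log axis in the 3 Light and 3 Dark libraries for the plus site (blue circles) and minus site (orange squares) of the 8 opposite pairs with the largest strand difference; bars are group means and thin lines join them. The 2 lines slope in opposite directions in every panel; TPX2, for example, lies at 5.34 CPM in Light and 356 CPM in Dark.

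Which of the 2 sites of a pair held more reads differed between the groups in 169 of the 632 pairs. Of these, 165 had the strand difference called, and in 123 the switch held in all 6 libraries. No such count was made over the wider pairs, so whether switches are particular to facing sites was not tested. Shares below are of the reads of these 2 sites alone and leave out other sites of the same genes. LHCB3 (AT5G54270), a light-harvesting protein of photosystem II, and ATM2 (AT5G54280), a myosin, crossed by 69 nt (chromosome 5, plus site at 22039507 and minus site at 22039438). At these 2 sites LHCB3 held 97.3% of the reads in Light and 43.7% in Dark. Its site averaged 242 ± 18.9 CPM in Light and 16.2 ± 1.99 CPM in Dark (SD, n = 3 each), and ATM2's 6.71 ± 1.03 CPM in Light and 20.9 ± 2.44 CPM in Dark. As counted for the leaf marker, LHCB3 had 552 ± 9.83 CPM in Light and 40.9 ± 4.21 CPM in Dark, above ATM2's site in both groups. The switch is thus one between these 2 sites, not between the whole genes. At TRXF1 (AT3G02730), a plastid thioredoxin, and DJ1D (AT3G02720), both sites were higher in Light. Yet TRXF1's site, on the minus strand, held 58.99% of the reads of the 2 sites in Light and 2.54% in Dark. Whole genes were not compared for this pair or for those in the next paragraph. TRXF1 had 59.7, 49.8 and 45.8 CPM in Light, against 0.936, 0.333 and 0.555 CPM in Dark, and DJ1D had 30.9, 39.3 and 37.3 CPM in Light, against 25.7, 19.7 and 22.2 CPM in Dark.

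Dark-abundant RNAs gave switches of the other kind. BETA-TIP (AT1G17810), an aquaporin of the vacuole membrane, had 1.45, 0.951 and 1.24 CPM in Light, against 31.7, 31.8 and 27.8 CPM in Dark. It held 11.4% of the reads in Light and 84.7% in Dark, opposite AT1G17820. CCD8 (AT4G32810), which cleaves carotenoids on the way to strigolactones, had 1.05, 0.951 and 3.85 CPM in Light, against 64.8, 131 and 96.8 CPM in Dark. All Light values lay below all Dark values, and its share was 11.3% ± 8.59 in Light and 82.3% ± 5.22 in Dark, against AT4G32820, which fell by 0.43 on the log2 scale, a call lost with library totals (-0.027, adjusted p = 0.881), with no filter on low counts (-0.38, adjusted p = 0.112) and without Dark replicate 3 (-0.37, adjusted p = 0.0778). BCA3 (AT1G23730), a beta carbonic anhydrase, fell 4.22-fold and AOR (AT1G23740), a plastid alkenal reductase, rose 8.78-fold, with a crossing of 16 nt. There BCA3 held 7.35% of the reads in Light and 74.6% in Dark.

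Of the pairs higher on both strands, the 6 with the largest smaller change included several chloroplast genes. HCF173 (AT1G16720), needed for translation of the photosystem II protein D1, had 129, 149 and 129.5 CPM in Light, against 28.6, 29.7 and 26.5 CPM in Dark. UP6 (AT1G16730), facing it 10 nt away, had 5.66, 8.08 and 9.52 CPM in Light, against 0.936, 1.25 and 1.11 CPM in Dark. Neither site's groups overlapped; HCF173 rose 4.80-fold and UP6 7.06-fold, and their strand difference did not pass (-0.54, adjusted p = 0.0668). At BSK2 (AT5G46570), a brassinosteroid signalling kinase, and AT5G46580 the strands rose by almost the same factor, 6.83-fold and 6.80-fold. BSK2 had 9.01, 6.93 and 9.98 CPM in Light, against 1.62, 0.748 and 1.43 CPM in Dark. AT5G46580 had 8.88, 9.57 and 9.65 CPM in Light, against 1.36, 1.66 and 1.11 CPM in Dark. Their strand difference was 0.00 (adjusted p = 0.979), and all Light values stood above all Dark values.

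CARB (AT1G29900), the large subunit of carbamoyl phosphate synthetase, and CAB3 (AT1G29910), a light-harvesting protein, both rose but by unequal amounts. CAB3 had 172, 153 and 193 CPM in Light, against 3.66, 1.66 and 3.73 CPM in Dark. CARB had 38.2, 47.6 and 36.3 CPM in Light, against 11.4, 13.4 and 7.22 CPM in Dark. CAB3 was 57.3-fold and CARB 3.81-fold higher, so the strand difference was -3.90 (adjusted p = 1.17e-12); CAB3 has near-identical copies, and how reads were shared among them is uncertain. AT3G56330 and AT3G56340 rose 9.38-fold and 15.9-fold. AT4G28740 rose 24.1-fold opposite PSAE-1 (AT4G28750), a subunit of photosystem I, at 6.59-fold. Opposite AT1G78210, 4.11-fold higher, a plus site with no gene assigned averaged 12.2 ± 0.512 CPM in Light and 0.28 ± 0.356 CPM in Dark.

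Of the pairs lower on both strands, GLYI7 (AT1G80160), of the glyoxalase I family, changed most. GLYI7 had 5.59, 8.35 and 15.8 CPM in Light, against 519, 672 and 589 CPM in Dark, with no overlap. A minus site 81 nt away, with no gene assigned, had 1.05, 0.951 and 0.782 CPM in Light, against 17.9, 21.04 and 19.7 CPM in Dark. GLYI7 fell 59.8-fold and the facing site 21.03-fold, and the strand difference of -1.52 (adjusted p = 0.0179) passed. ACA10 (AT4G29900), a calcium pump, fell 4.54-fold and AT4G29890 4.90-fold. HTB9 (AT3G45980), a histone H2B, fell 4.17-fold opposite EXLA1 (AT3G45970), an expansin-like protein, at 4.91-fold. ALY4 (AT5G37720), an mRNA export adaptor, fell 5.01-fold and AT5G37710 4.53-fold; FBP7 (AT1G21760), an F-box protein, fell 4.29-fold and AT1G21770 5.51-fold; AT1G05835 and AT1G05840 fell 7.22-fold and 6.27-fold. In these 5 pairs the strand difference did not pass, with sizes from 0.11 to 0.35. AT1G05835 had 5.07, 4.41 and 3.78 CPM in Light, against 47.8, 13.97 and 34.03 CPM in Dark, all Light values below all Dark values.

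The 6 pairs with most reads were each dominated by 1 strand. PYK10 (AT3G09260), a beta-glucosidase of root and hypocotyl, had 6415, 6934 and 7649 CPM in Light, against 1859, 996 and 1600.1 CPM in Dark, and AT3G09250, 79 nt away, had 3.95, 4.01 and 3.72 CPM in Light, against 6.64, 3.58 and 6.03 CPM in Dark. PYK10 rose by 2.24 ± 0.17 (adjusted p = 2.58e-10). AT3G09250 overlapped between the groups and did not pass (-0.48 ± 0.24, adjusted p = 0.0835), but was called lower without Dark replicate 2 (-0.73, adjusted p = 0.00593). PSBR (AT1G79040), a photosystem II subunit, overlapped between the groups at 4305 ± 655 CPM in Light and 3403 ± 463 CPM in Dark; its call (log2 change 0.34, adjusted p = 0.0296) was lost without Light replicate 2 (0.25, adjusted p = 0.156), Dark replicate 1 (0.30, adjusted p = 0.0613) or Dark replicate 2 (0.22, adjusted p = 0.115). RECA1 (AT1G79050), a plastid recombinase facing it, rose 2.00-fold without overlap, with 45.1, 44.00 and 42.6 CPM in Light, against 22.5, 22.3 and 21.2 CPM in Dark. LHB1B2 (AT2G34420), another light-harvesting protein with close copies, rose 2.80-fold and RWA3 (AT2G34410), of cell wall acetylation, 2.05-fold.

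Darkness favoured the dominant strand of the other most-read pairs. AT1G32460 had 391, 486 and 465 CPM in Light, against 2365, 2605 and 2445 CPM in Dark, 5.52-fold lower in Light, and AT1G32470 opposite it, at 5.67 ± 2.10 CPM in Light and 7.83 ± 1.61 CPM in Dark, did not pass (-0.46 ± 0.25, adjusted p = 0.101) except without Dark replicate 2 (-0.61, adjusted p = 0.0284) or with its strand summed within 400 nt (-0.74, adjusted p = 0.0403). GAMMA CAL2 (AT3G48680), a carbonic anhydrase-like subunit of mitochondrial complex I, fell 4.59-fold and CXE12 (AT3G48690), a carboxylesterase, 1.77-fold. A minus site with no gene assigned, at 19789117 on chromosome 5, averaged 717 ± 12.3 CPM in Light and 1286 ± 78.5 CPM in Dark and crossed that of AT5G48800 by 4 nt, where the values were 3.68, 6.25 and 6.78 CPM in Light, against 6.04, 5.74 and 5.31 CPM in Dark and did not differ beyond their spread.

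Of the 28 pairs with neither site called, the 4 with most reads were led by genes of protein synthesis, transcription and protein breakdown. RPS18C (AT4G09800), a ribosomal protein, had 545, 612 and 579 CPM in Light, against 619, 528 and 543 CPM in Dark. EMB3137 (AT5G14320), a plastid ribosomal protein, had 180.5, 201 and 168 CPM in Light, against 190.3, 186 and 188 CPM in Dark. PBF1 (AT3G60820), a subunit of the 20S proteasome, had 146, 139.9 and 137 CPM in Light, against 155, 168 and 158 CPM in Dark. PBF1's Light values all lay below its Dark values, by little (-0.18 ± 0.12, adjusted p = 0.164), and the groups of the other sites overlapped. MBF1A (AT2G42680), a transcriptional coactivator, averaged 175 ± 20.8 CPM in Light and 193 ± 10.97 CPM in Dark. A call that fails the threshold does not show that a level was the same: with library totals 6 of these 8 sites were called higher, among them RPS18C (0.44, adjusted p = 0.00247) and EMB3137 (0.36, adjusted p = 0.00904). The test within a pair still called a strand difference in 4 of the 28 pairs. Among them were MBF1A with AT2G42690 (-0.50, adjusted p = 0.0382) and AT3G60810 with PBF1 (0.43, adjusted p = 0.0471), each as plus minus minus.

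Photosynthesis genes at facing ends were mostly higher in Light. They form 1 of 3 role lists drawn up from the members' symbols after their values had been seen, so the counts are descriptions without a test. Of 22 sites of 20 photosynthesis genes, 18 rose in Light, 2 fell and 2 missed the threshold, with a median change of 1.65. Over all sites with at least 300 reads 35.8% were higher and 41.5% lower, with a median of -0.10. The sites facing them were higher in 14 cases, lower in 5 and not called in 3, with a median of 0.79. In 6 of the 22 pairs the strands went opposite ways, and in 21 the strand difference was called. FNR1 (AT5G66190), the leaf ferredoxin-NADP reductase, had 109.8, 111 and 88.4 CPM in Light, against 16.2, 16.7 and 15.1 CPM in Dark. AT5G66180, crossing it by 20 nt, had 4.08, 3.60 and 4.56 CPM in Light, against 36.6, 33.3 and 41.4 CPM in Dark. No library of 1 group reached the other at either site, and FNR1 rose 6.44-fold while AT5G66180 fell 9.09-fold.

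FD1, a ferredoxin, rose 12.2-fold, and ZIP4, a zinc transporter, rose with it. CP12-2, a regulator of the Calvin cycle, changed by 3.33 and its facing gene BZIP53, a transcription factor of the response to low sugar, by -0.34 (adjusted p = 0.0191), a call lost without Light replicate 1 (-0.28, adjusted p = 0.0951) or Light replicate 3 (-0.27, adjusted p = 0.0844), with no filter (-0.29, adjusted p = 0.109) and with library totals, which turned its sign (0.067, adjusted p = 0.624). LHCA4, a light-harvesting protein of photosystem I, averaged 323 ± 7.49 CPM in Light and 161 ± 19.97 CPM in Dark, while ATSMC2, a condensin subunit, changed by -1.51 (adjusted p = 5.40e-07). PSAE-2, the second gene for subunit E of photosystem I, went against the list: it had 79.8, 77.3 and 67.4 CPM in Light, against 124, 125 and 118 CPM in Dark, all Light values lower. AT2G20270, facing it, was higher (1.24, adjusted p = 2.61e-07). NdhS, of the chloroplast NDH complex, was the other lower one (-0.64, adjusted p = 4.57e-04), though not with library totals (-0.24, adjusted p = 0.141).

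**Figure D4:**
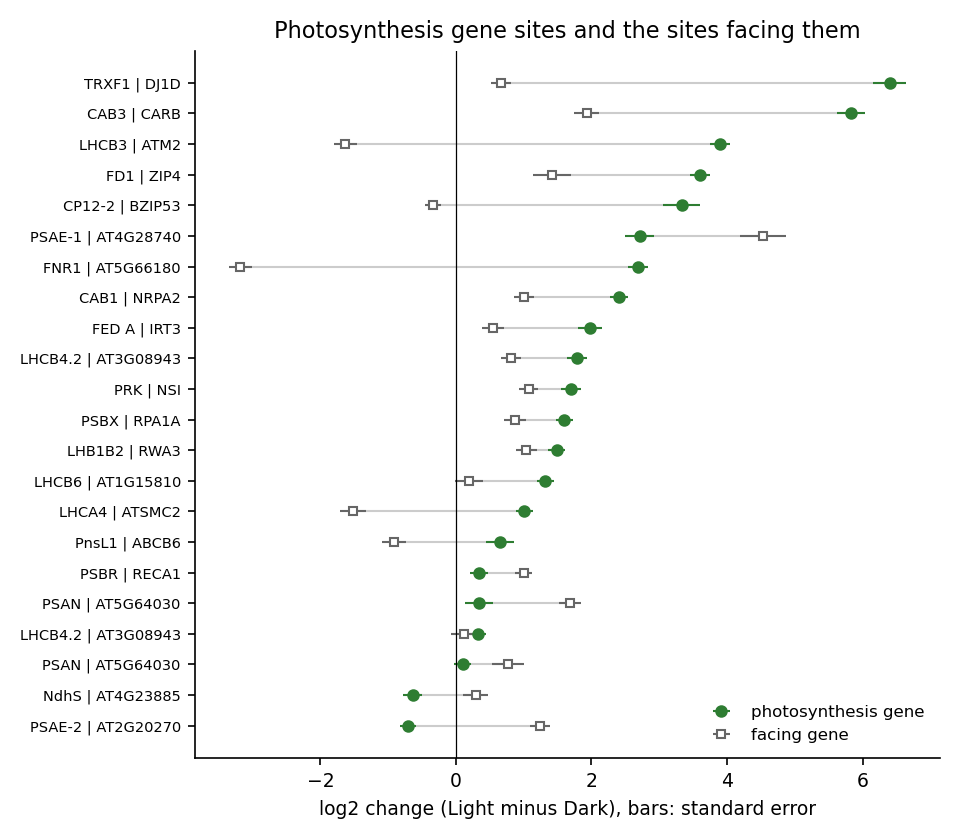
Log2 change (Light minus Dark, horizontal axis) of 22 poly(A) sites of photosynthesis genes (green circles) and of the sites facing them (open squares), sorted by the photosynthesis gene. Bars are the standard error derived from the F statistic. Circles and squares both lie mostly right of 0, with medians of 1.65 and 0.79. Both have points on the left, the squares down to -3.18 for AT5G66180 facing FNR1.

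Genes of RNA processing and decay included sites of either direction. Of 28 sites of 27 genes, 8 were higher, 13 lower and 7 not called (median -0.08), and of the facing sites 11 were higher, 9 lower and 8 not called (median 0.29); 5 pairs were opposite. Over all sites with at least 300 reads 35.8% were higher and 41.5% lower. PUM5, a Pumilio RNA-binding protein, averaged 113 ± 3.45 CPM in Light and 404 ± 30.95 CPM in Dark, a change of -1.84, while AT3G20240 facing it changed by 3.49 (adjusted p = 7.94e-13). CDC5, a spliceosome-associated MYB protein, changed by -2.37 opposite iPGAM1, a glycolytic phosphoglycerate mutase, at 1.85. RS2Z33, an SR splicing factor, was lower by 1.91 on the log2 scale together with ALS3, of aluminium tolerance, at -2.77. XRN4, the cytoplasmic exoribonuclease, averaged 14.7 ± 0.513 CPM in Light and 16.4 ± 1.08 CPM in Dark and did not pass (-0.16, adjusted p = 0.347), although its strand summed within 400 nt was lower (-0.31, adjusted p = 0.0123) and library totals turned its sign (0.25, adjusted p = 0.141).

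Ubiquitin and proteasome genes also had sites of either direction. Over all sites with at least 300 reads 35.8% were higher and 41.5% lower. Of 17 sites of 16 genes, 6 were higher, 5 lower and 6 not called (median 0.12), and of the facing sites 6 were higher, 7 lower and 4 not called (median -0.12); 4 pairs were opposite. RPT1A, a proteasome ATPase, averaged 226 ± 18.98 CPM in Light and 115 ± 8.31 CPM in Dark and SRF6, a receptor kinase facing it, changed by -0.65 (adjusted p = 1.16e-04), which library totals reduced to -0.24 (adjusted p = 0.0781). UBC17, a ubiquitin-conjugating enzyme, averaged 0.796 ± 0.017 CPM in Light and 8.11 ± 0.202 CPM in Dark, a change of -3.33, and AT4G36420 facing it changed by 1.96 (adjusted p = 1.70e-10).

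At the 19 places with 2 facing pairs, both poly(A) sites of a gene could be read against the same neighbour. At EID1 (AT4G02440), an F-box protein of phytochrome A signalling, both sites fell, with log2 changes of -2.06 and -1.99. AT4G02450 facing it, a co-chaperone of the p23 type, had 112, 105 and 112 CPM in Light, against 27.8, 36.00 and 30.1 CPM in Dark at its distal site. At its main site 97 nt upstream it had 334, 299.8 and 313 CPM in Light, against 331, 331 and 316 CPM in Dark. The distal site was higher in every Light library (1.81 ± 0.13, adjusted p = 1.42e-10) and the main site overlapped between the groups (-0.05 ± 0.11, adjusted p = 0.729). LHCB4.2 (AT3G08940), a minor antenna protein of photosystem II, rose 3.45-fold at its distal site and 1.26-fold at the main site 86 nt upstream. The call at the main site was lost without Light replicate 2 (0.32, adjusted p = 0.0506), Dark replicate 2 (0.25, adjusted p = 0.0644) or Dark replicate 3 (0.32, adjusted p = 0.0722). HB-1 (AT3G01470), a homeodomain-leucine zipper factor, fell 5.93-fold at its main site and 2.00-fold at the site 34 nt downstream. GH9A1 (AT5G49720), a membrane-bound cellulase, fell 3.08-fold at its main and 1.32-fold at its distal site, where the call was lost without Dark replicate 2 (-0.25, adjusted p = 0.129), without any of the 3 Light replicates (adjusted p = 0.0558, 0.0746 and 0.0639), with no filter (-0.35, adjusted p = 0.109) and with library totals (0.013, adjusted p = 0.937). By contrast both sites of ALY4 and of AT1G30200 moved by like amounts (-2.15 and -2.32, -2.15 and -1.99).

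A facing arrangement that occurs at more than 1 place in the genome changed differently at each. SEC5A (AT1G76850) and SEC5B (AT1G21170) encode the same subunit of the exocyst, which tethers secretory vesicles, and LSM3B (AT1G76860) and LSM3A (AT1G21190) the same subunit of the LSM ring, which acts in splicing and mRNA decay. LSM3B had 40.6, 45.5 and 41.99 CPM in Light, against 106, 76.8 and 83.4 CPM in Dark, and LSM3A had 18.6, 14.8 and 11.4 CPM in Light, against 4.76, 4.41 and 6.11 CPM in Dark. LSM3B was lower in every Light library (-1.05 ± 0.14, adjusted p = 7.95e-07) and LSM3A higher (1.55 ± 0.20, adjusted p = 1.03e-06). Neither SEC5A (0.21 ± 0.13, adjusted p = 0.149) nor SEC5B (0.30 ± 0.16, adjusted p = 0.0999) passed, but with library totals both were called higher (0.62 and 0.70, adjusted p = 3.85e-04 and 6.38e-04). Summed within 400 nt, the strand of LSM3A did not pass (0.10, adjusted p = 0.428). The RNAs of the SEC5A pair crossed by 4 nt (chromosome 1, plus site at 28854464 and minus site at 28854460), and those of the SEC5B pair ended 76 nt apart. These genes were picked after their values were seen.

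Of 3 convergent pairs known for small RNAs from their overlap or for antisense control, only AT4G35850, a pentatricopeptide repeat gene, and GB2 (AT4G35860), a small GTPase of the RAB family, formed a facing pair under the rule. AT4G35850 had 26.3, 24.6 and 24.1 CPM in Light, against 9.87, 7.90 and 6.98 CPM in Dark. GB2 had 5.07, 6.72 and 5.41 CPM in Light, against 9.10, 8.90 and 8.17 CPM in Dark. The groups did not overlap at either site; AT4G35850 rose 3.03-fold and GB2 fell 1.52-fold (adjusted p = 0.00782), a call lost with library totals (-0.20, adjusted p = 0.349). Their ends lay 36 nt apart (chromosome 4, plus site at 16986858 and minus site at 16986894). SRO5 with P5CDH and KPL with ARI14 had no pair of sites within the limits.

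Site shifts at facing ends were tested between a member site and the most-read other site of its strand within 400 nt, where the less used site held at least 5% of the reads of the 2. Of 969 facing ends with such a site, 303 (31.3%) changed, against 31.5% of all 9761 pairs of sites tested, of which 24 at facing ends held the same 2 sites as another and were counted once among the 969. To the distal site went 232 (23.9%, against 24.6% of all site pairs) and to the proximal site 71 (7.33%, against 6.91%). The median shift, as a log2 change of distal over proximal reads, was 0.26 at facing ends and 0.26 at the 8768 site pairs without a facing site as anchor. At 230 facing ends the sites lay on either side of the facing site, so that the shift changed whether the RNA crossed it; 60 of these shifted to the distal and 15 to the proximal site. Where an end shifted to the distal site the facing site was higher in 73 cases, lower in 107 and not called in 52, and where it shifted to the proximal site in 29, 28 and 14; of all member sites 36.0% were higher, 40.0% lower and 24.0% not called. In 38 pairs both strands shifted, 22 both to distal, 3 both to proximal and 13 in different ways.

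The largest distal shift was that of AT5G27860 (chromosome 5, distal site at 9874653 and proximal site at 9874883), which faces AT5G27850. Its distal share was 45.9, 54.8 and 45.9% in Light, against 0.844, 0.398 and 0.461% in Dark, a shift of 7.25 (adjusted p = 6.73e-12). AT1G11480, facing NRPB10, a subunit of RNA polymerase II, had a distal share of 13.7, 13.1 and 14.9% in Light, against 2.04, 3.31 and 2.33% in Dark (chromosome 1, distal site at 3864058 and proximal site at 3864203). No Dark library reached a Light library at either gene. AT5G65960 has its distal site 76 nt beyond, and its proximal site 33 nt before, the site of MLO10, a membrane protein of the MLO family. The distal share was 20.1, 16.1 and 16.4% in Light, against 3.08, 3.07 and 4.26% in Dark, and both genes were lower in Light, with log2 changes of -1.59 at its proximal site and -0.85 at MLO10, the second not called with library totals (-0.45, adjusted p = 0.0653). Here the longer RNA, which crosses the facing site, gained share at an end whose main site fell.

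GAMMA CA2 (AT1G47260), a carbonic anhydrase subunit of mitochondrial complex I, faces PAF2, an alpha subunit of the 20S proteasome. Its distal share was 37.4, 37.3 and 28.3% in Light, against 11.1, 9.71 and 6.49% in Dark, and its distal site rose by 2.33 while the proximal one did not pass (-0.07, adjusted p = 0.661). AT5G51280, facing ACD5, a ceramide kinase, used the distal site in 15.9% ± 2.15 in Light and 3.52% ± 1.78 in Dark. AT1G10865 used it in 98.1% ± 1.42 in Light and 90.1% ± 2.43 in Dark. Among these 6 the smallest shift was 2.39 (adjusted p = 7.87e-05).

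Shifts to the proximal site were smaller. MAP70-1 (AT1G68060), a microtubule-associated protein, faces FKF1, a blue light receptor of flowering time. Its distal share was 20.2, 23.9 and 26.7% in Light, against 51.3, 51.7 and 54.5% in Dark (chromosome 1, distal site at 25510960 and proximal site at 25511000), a shift of -1.87 (adjusted p = 2.84e-06). The proximal site rose by 1.96, while the distal one, 96 nt from FKF1's site, did not pass (0.10, adjusted p = 0.65). AT4G27700, facing VPS26B, a retromer subunit, shifted by -2.13 (adjusted p = 1.02e-05) and used the distal site in 88.7% ± 2.24 in Light and 97.3% ± 0.168 in Dark. AT3G17160 had a distal share of 76.7, 66.6 and 75.7% in Light, against 86.9, 90.5 and 92.6% in Dark, with RFC3, a regulator of fatty acid composition, facing it and higher by 2.96. In AT5G19500 and AT4G17840 both sites lay beyond the facing site. The distal share was 69.3% ± 5.71 in Light and 90.7% ± 5.44 in Dark in the first and 61.5% ± 3.67 in Light and 83.9% ± 2.57 in Dark in the other. AT2G47640, facing UXS4, a UDP-xylose synthase, shifted least of the 6, by -1.57 (adjusted p = 0.000358).

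**Figure D5:**
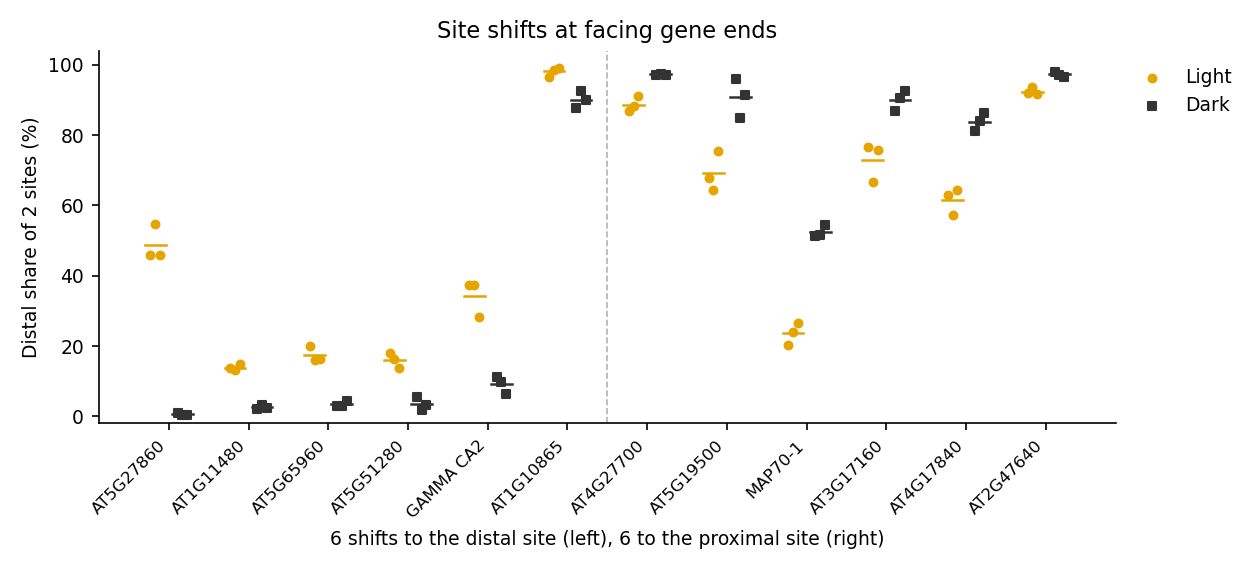
Share of reads at the distal of 2 sites (vertical axis, percent) in the 3 Light (orange circles) and 3 Dark (black squares) libraries at the 6 largest shifts to the distal site and the 6 largest to the proximal site; bars are means. Light and Dark points do not overlap at any of the 12 ends, which was a condition of their choice, from AT5G27860, at 48.9% in Light and 0.568% in Dark, to AT2G47640.

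Read-weighted mean ends over each strand's sites within 400 nt of its member gave the distance between the whole ends. The mean gap was 44.6, 45.8 and 45.05 nt in the Light libraries, against 50.7, 49.4 and 50.2 nt in the Dark libraries, that is 45.1 ± 0.604 nt in Light and 50.1 ± 0.649 nt in Dark (SD, n = 3 each), a difference of -4.97 nt. Every Light library had a shorter gap than every Dark library. Mean ends overlapped in 153.7 ± 1.15 pairs in Light and 144.3 ± 4.73 in Dark, and 447 pairs moved toward or into overlap in Light while 185 moved the other way, with a median change of 3.55 nt. No test was run on these summaries, since the members were chosen with earlier results known. A like measure was not taken at other ends. There 24.6% shifted to the distal and 6.84% to the proximal site, against 23.9% and 7.33% at facing ends, so the direction is not particular to facing ends.

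The widest gap of mean ends belonged to AT5G27850 and AT5G27860, at 339 nt in Light and 443 nt in Dark. The next were SC35, an SR splicing factor, with AT5G64190, at 315 nt in Light and 313 nt in Dark, and UBC35, a ubiquitin-conjugating enzyme, with AT1G78880, at 262 nt in Light and 274 nt in Dark. UBC35's site was higher in Light (0.63), but its strand summed within 400 nt was lower (-0.60, adjusted p = 2.46e-04), and it was not called without Light replicate 1 (0.35, adjusted p = 0.164) or Dark replicate 3 (0.52, adjusted p = 0.0872). AT5G27860 likewise rose by 4.84 at its distal site, while its strand as a whole fell (-1.82, adjusted p = 7.31e-07). The longest overlap was that of GBF1 (AT4G36730), a G-box binding factor, and HVA22K (AT4G36720), at 170.3 nt in Light and 158 nt in Dark. GBF1 had 1.38, 1.36 and 1.37 CPM in Light, against 17.4, 12.6 and 18.1 CPM in Dark and HVA22K 7.43, 5.91 and 5.80 CPM in Light, against 14.8, 17.5 and 14.8 CPM in Dark, both lower in Light. Overlap also stood at 129 nt in Light and 148 nt in Dark for AT4G17830 and AT4G17840, and at 119.9 nt in Light and 128 nt in Dark for AT1G19710 and AT1G19715.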

How the data were processed

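The deposited table holds raw read counts per poly(A) site cluster and library, as whole numbers, and all 6 count columns were matched to samples by title. Bowtie2 and TAIR10 are named in the submitters' processing notes. How clusters were formed, and which base a position stands for, is not given in the sources used here. The facing pairs, the role lists and the tests were chosen with earlier results of these data known. The genes named were, by a rule written down with those results known, the 8 opposite pairs with the largest strand difference, 6 pairs higher and 6 lower on both strands, 6 with most reads, 4 with neither site called, 6 shifts each way, 3 extremes of gap and overlap, the pairs at the limits and 3 known pairs; those of the role lists, strand switches, places with 2 pairs and SEC5 were added by their values. Opposite pairs, like-direction pairs and shifts were named only where the Light and Dark libraries did not overlap.

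Site changes were tested in R 4.3.3 with edgeR 4.0.16 (TMM factors, filterByExpr with minimum count 10 and minimum total 15, quasi-likelihood F-test, Benjamini-Hochberg adjustment, threshold 0.05) over the whole table. Strand differences and site shifts used edgeR's diffSpliceDGE; site pairs of 1 strand can share a cluster. Gene strands were inferred from reads at the gene ends (at least 20 reads, 90% on 1 strand) of a RefSeq table on TAIR10.1, used for names and neighbours alone, and a site took the gene it lay in or, failing that, one ending at most 200 nt before it. On simulated counts for 45324 sites, 90% of site changes of 1 log2 unit and 100% of 2 units were called; for 632 pairs the strand difference gave 90% and 100%, and for 9605 ends the shift gave 56.1% and 96.9%. Among unchanged units, 0.047% of sites, 4.17% of pairs and 0.17% of ends were called. In the simulation of pairs, the strand calls thus held a larger share of false ones than the threshold of 0.05 allows. Each simulation changed only 100 units of each size, whereas 68.1% of sites were called in the data. Alternatives were library totals, DESeq2 1.42.0, limma 3.58.1, no filter, summed strands, other limits of the pairing rule, the replicate number as a block and each library left out. Sequences of the sites were not used here.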

Additional observations from a re-analysis of the deposited data

How the results depend on the processing

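The share of opposite pairs lay between 25.0 and 28.4% over other limits of distance and reads, other choices of partner and 1 pair per place, and their number between 148 and 185 over the other fits. Leaving out 1 library gave 156 to 171 opposite, 69 to 81 both higher, 90 to 105 both lower and 34 to 49 pairs with neither site called, against 28, with 47 without Light replicate 2 and 49 without Dark replicate 3. It gave 491 to 507 strand differences, 169 to 225 distal and 47 to 63 proximal shifts, the proximal count lowest without Light replicate 2, and mean gap changes of 4.68 to 5.32 nt. Neither site was called in 48 pairs with no filter on low counts, in 7.04% of pairs with a minimum of 100 reads and in 2.63% with 1000 reads. Library totals gave 152 pairs higher and 54 lower on both strands. The causes were not tested.

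Whether the replicate numbers pair the samples is not settled. Deviations from the group means of same-numbered libraries correlated at 0.039, -0.0076 and 0.0739. Those of differently numbered libraries correlated at -0.0645 to 0.0286. With 3 libraries a group these values cannot decide it. With the number as a block, 449 member sites were higher and 502 lower, 169 pairs were opposite, 511 strand differences, 223 distal and 66 proximal shifts were called. Strand differences numbered 506 by limma and 509 when adjusted together with the wider pairs, an alternative chosen after seeing the data.

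Of the named sites, library totals turned AT1G19715 to 0.089, MBF1A to 0.26, PBF1 to 0.22, EMB3137 to 0.36, AT5G48800 to 0.37, BZIP53 to 0.067, XRN4 to 0.25, the main site of AT4G02450 to 0.36, the distal site of GH9A1 to 0.013 and the proximal site of GAMMA CA2 to 0.33. No filter turned EMB3137 to 0.011, AT5G48800 to 0.018 and AT4G02450 to 0.0030. Strands summed within 400 nt turned UBC35 to -0.60, RPS18C to -0.26, AT5G27860 to -1.82, AT5G48800 to 0.026, AT4G02450 to 0.33 and GAMMA CA2 to 0.70. With 1 library left out, RPS18C ranged from -0.031 to 0.10, EMB3137 from -0.091 to 0.038, AT5G48800 from -0.18 to 0.22, AT4G02450 from -0.10 to 0.011, GAMMA CA2 from -0.15 to 0.031 and the distal site of MAP70-1 from -0.035 to 0.18, all of them sites with no call. AT1G19715 lost its call under the block (adjusted p = 0.0506) and 7 other alternatives, among them without Light replicate 1 (-0.31, adjusted p = 0.0834). The other sites and shifts for which alternatives were run kept their direction. Sites near 300 reads average 50 reads a library, which limits small changes.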
